A study of Mus musculus with 16 samples.

Results

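*Grid1*, which encodes the delta glutamate receptor GluD1, and the cerebellin genes *Cbln1*, *Cbln2*, *Cbln3* and *Cbln4* were followed across both brain regions and both genotypes. The genes were taken by their names in the deposited gene table, and the 5 names belong to 6 of the 37583 gene entries, because 2 entries carry the name *Cbln1*. All 6 entries had reads, as did 27196 entries of the whole annotation. RNA was sequenced from the cortex and the cerebellum of 8 mice on a C57BL/6J background, 4 of them wild type and 4 carrying the A391T mutation of *Slc39a8* (also labelled A393T), a metal ion transporter gene. Each mouse gave 1 cortex and 1 cerebellum library, so that each of the 4 groups held 4 libraries and the series 16. The methods describe the wild-type mice as males of 12 weeks and the cortex as frontal cortex cut by blunt dissection, and do not describe the A391T mice. The mutation changes a single residue and cannot be read from counts per gene, so the genotype of a library rests on its label. Library names below join the region (CTX for cortex, CBLM for cerebellum) and the number of the mouse.

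Cerebellins are secreted proteins of the C1q family that assemble into hexamers and act in the synaptic cleft. They bind neurexins on the presynaptic membrane and delta glutamate receptors on the postsynaptic side, and the bridge they form organises the synapse. Cbln1 is known as the granule cell product that holds parallel fibre synapses on Purkinje cells together. Cbln3 is secreted only in complex with another cerebellin, Cbln4 also binds the netrin receptor DCC, and GluD1 is found at many forebrain synapses.

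The libraries held from 20813432 to 30497206 counts on genes. Of all counts of a count file, those off genes included, from 21.4% to 27.1% lay on no single gene. For 8 of the 16 libraries, those of 4 mice, the count file and the table with RPKM values carry different names. Groups follow the count files, and values under the names of the table are given beside the results for which they are needed. Marker genes followed the labelled tissues. They are counted here as higher where called in wild-type mice, at an adjusted p under 0.05 and a 2-fold change (edgeR's quasi-likelihood test). All 10 granule cell markers and all 9 Purkinje cell markers were higher in wild-type cerebellum, while 8 of 9 cortical excitatory neuron markers and 8 of 8 interneuron markers were higher in cortex. Of the markers of tissue next to the dissected regions, 6 of 8 for striatum were called higher in cortex and 7 of 7 for choroid plexus higher in cerebellum. The striatum markers not called, *Penk* (log2 fold change -0.42) and *Ppp1r1b* (-0.62), were also higher in cortex, by under 2-fold. For hippocampus 2 of 7 were called higher in cerebellum and 5 in cortex, and for olfactory areas 4 of 5 and 1. For thalamus 1 of 8 was called higher in cerebellum and 1 in cortex, and the other thalamus markers were not called in either direction. The summed choroid plexus markers were 34.9 and 37.6 CPM (counts scaled to one common library total) in CBLM462 and CBLM479 and from 911 to 2805 CPM in the other 6 cerebellum libraries. In bulk tissue, fewer cells of a type and less RNA per cell cannot be told apart.

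The start sites of *Cbln3* and *Cbln4* are shown because these genes had opposite regional patterns and RefSeq promoters were at hand for both. The 250 bases upstream of each start, from RefSeq (GRCm38.p6) and placed in NCBIM37, the build of the files, by exact match, end at the annotated end of the gene, both on the minus strand. They lie at chr14:56503094-56503343 for *Cbln3* and at chr2:171868967-171869216 for *Cbln4*. Capitals mark the E-box CANNTG, which reads the same on both strands and is the motif of basic helix-loop-helix factors such as the granule cell factor Neurod1.
Cbln3: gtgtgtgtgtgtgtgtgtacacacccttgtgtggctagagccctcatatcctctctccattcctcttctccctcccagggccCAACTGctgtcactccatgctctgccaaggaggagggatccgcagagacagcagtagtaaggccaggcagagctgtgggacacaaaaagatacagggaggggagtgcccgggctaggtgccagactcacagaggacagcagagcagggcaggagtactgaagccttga
Cbln4: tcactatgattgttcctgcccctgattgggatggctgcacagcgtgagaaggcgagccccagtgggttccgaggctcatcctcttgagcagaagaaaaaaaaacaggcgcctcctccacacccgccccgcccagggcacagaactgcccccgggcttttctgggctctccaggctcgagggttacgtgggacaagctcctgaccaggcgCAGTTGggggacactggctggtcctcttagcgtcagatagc
Each window held 1 match, 168 bases before the start of *Cbln3* and 41 bases before that of *Cbln4*. Of 32851 RefSeq promoters cut to the same length, 66.2% held at least 1 match. RefSeq promoters were given for 2 of the 5 gene names.

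*Cbln3* was among the most abundant cerebellins of the cerebellum, and its order against *Cbln1* depended on the gene length used. It lies on the minus strand of chromosome 14 (chr14:56497757-56503093), with 6 distinct exons in the annotation and no exon base shared with another gene. Levels are given in TPM, counts per base of gene length that add up to one fixed total in every library. Wild-type cerebellum had 992 TPM (CBLM447), 1003 TPM (CBLM448), 1017 TPM (CBLM479) and 1090 TPM (CBLM480). Wild-type cortex had 0.664 TPM (CTX447), 1.42 TPM (CTX448), 1.13 TPM (CTX479) and 0.875 TPM (CTX480). The ranges were far apart, with 26 to 65 counts in the cortex libraries and 37025 to 39392 in the cerebellum libraries. The mean was 1025 ± 44.5 TPM in wild-type cerebellum and 1.02 ± 0.325 TPM in wild-type cortex (SD, n = 4 each), a log2 fold change of 9.80 (SE 0.16, adjusted p = 7.6e-12, edgeR's quasi-likelihood test). Across all genes tested in wild-type mice, 10.5% were called higher in cerebellum and 14.2% higher in cortex, at an adjusted p under 0.05 and a 2-fold change.

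In A391T mice the *Cbln3* level was 772 TPM in CBLM445, 1123 TPM in CBLM446, 983 TPM in CBLM461 and 1076 TPM in CBLM462. The cortex of the same mice had 0.723, 0.946, 0.911 and 0.782 TPM in CTX445, CTX446, CTX461 and CTX462. CBLM445 was the lowest of the 8 cerebellum libraries for *Cbln3*, for *Cbln1* and for *Grid1*, and its expression profile was the farthest of all 16 libraries from its group (SD of the log2 deviations 0.427, against a median of 0.159). The log2 fold change between the regions was 10.09 (SE 0.15, adjusted p = 7e-11) in A391T mice. There 9.80% of the genes tested were called higher in cerebellum and 14.9% higher in cortex.

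*Cbln1* was also a gene of the cerebellum. Its first entry (ENSMUSG00000031654) covers chr8:89992761-89996508 on the minus strand, and the second (ENSMUSG00000090275) lies within it on the same strand at chr8:89992768-89994967. The entries share 1581 exon bases, 67.5% of the exon bases of the first and 87.0% of those of the second. HTSeq, the counting tool of the authors, leaves a read that fits both entries uncounted in its usual settings, so that the counts of both can understate the gene; the setting used was not given. Wild-type cerebellum had 314 TPM (CBLM447), 293 TPM (CBLM448), 350 TPM (CBLM479) and 384 TPM (CBLM480) on the first entry. Wild-type cortex had 1.97, 1.53, 2.28 and 0.851 TPM in CTX447, CTX448, CTX479 and CTX480, from 17 to 46 counts. These ranges were also wholly apart, at 335 ± 39.9 TPM against 1.66 ± 0.619 TPM (SD, n = 4 each), a log2 fold change of 7.50 (SE 0.18, adjusted p = 4.8e-11).

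In A391T cerebellum the first entry of *Cbln1* had 201 TPM (CBLM445), 299 TPM (CBLM446), 255 TPM (CBLM461) and 314 TPM (CBLM462). A391T cortex had from 1.47 to 1.71 TPM, and the log2 fold change was 7.28 (SE 0.15, adjusted p = 3.8e-10). The second entry had 369 to 403 counts in the wild-type cerebellum libraries and 279, 316, 360 and 610 counts in CBLM461, CBLM462, CBLM446 and CBLM445. It took 10.2% of the counts of both entries in CBLM445 and from 4.56% to 5.76% in the other 7 cerebellum libraries. In the 4 wild-type cortex libraries it had 1 count in all, against 1554 in wild-type cerebellum, a ratio of 1570 per count on genes with a 95% exact interval from 281 to 61920 that covers counting error only. In A391T mice 4 counts in cortex stood against 1565 in cerebellum, a ratio of 411 with an interval from 160 to 1512. With the names of the RPKM table the cortex libraries held 3 counts in wild-type and 2 in A391T mice, and the order of the ratios turned, to 460 (interval 157 to 2232) and 919 (interval 254 to 7591). With the names of the count files both differences were called, with adjusted p = 1.5e-10 in wild-type and 5.8e-08 in A391T mice from edgeR's quasi-likelihood test. Under the names of the RPKM table the same test gave adjusted p = 1.1e-09 and 4.9e-09.

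*Cbln2* had the opposite pattern and was the most abundant cerebellin of the cortex. It lies on the plus strand of chromosome 18 and shares no exon base with another gene. Wild-type cortex had 72.3 TPM (CTX447), 68.7 TPM (CTX448), 81.8 TPM (CTX479) and 80.5 TPM (CTX480). A391T cortex had 70.7 TPM (CTX445), 61.1 TPM (CTX446), 64.7 TPM (CTX461) and 56.6 TPM (CTX462). The cortex libraries were thus close to each other, and the genotypes overlapped only through CTX445 and CTX448. The overlap was wider with the names of the RPKM table, at 61.1 to 72.3 TPM in A391T and 56.6 to 81.8 TPM in wild-type cortex.

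The cerebellum libraries differed more among themselves in *Cbln2*. Wild-type cerebellum had 2.07 TPM (CBLM447), 0.717 TPM (CBLM448), 7.48 TPM (CBLM479) and 0.438 TPM (CBLM480), and A391T cerebellum had 0.388 TPM (CBLM445), 0.466 TPM (CBLM446), 11.1 TPM (CBLM461) and 0.505 TPM (CBLM462). CBLM461 held 202 counts and CBLM479 held 143, where the other 6 held from 8 to 39. No cerebellum library reached a cortex library. The log2 fold change from cortex to cerebellum was -4.97 (SE 0.49, adjusted p = 4e-06) in wild-type mice and -4.51 (SE 0.80, adjusted p = 0.00067) in A391T mice. Without CBLM479 it was -6.29 in wild-type mice, and without CBLM461 it was -7.20 in A391T mice. Under the names of the RPKM table, which place both libraries in the wild-type group, it was -4.0 (adjusted p = 0.00011) in wild-type and -6.36 (adjusted p = 3.9e-08) in A391T mice.

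The same 2 cerebellum libraries stood apart in other genes. *Tcf7l2*, a transcription factor of thalamus and midbrain, was at 47.8 CPM in CBLM461 and 38.6 CPM in CBLM479, against 4.80 to 6.26 CPM in the other 6. *Sst*, which encodes somatostatin, was at 23.3 and 16.4 CPM against 2.46 to 5.65 CPM, and *Slc17a6*, a vesicular glutamate transporter gene, at 82.9 and 53.8 CPM with every other library below both. Of the 8 thalamus markers 3 were higher in both libraries than in any of the other 6, and of the 8 interneuron markers 4 were. So were 2 of 8 striatum markers (*Drd2* and *Tac1*), 2 of 7 hippocampus markers (*Wfs1* and *Cpne7*), and 1 each of the 9 cortical excitatory neuron, 10 granule cell and 6 olfactory markers. Of the striatum and olfactory markers 1 each (*Ppp1r1b* and *Barhl2*) were lower in both libraries than in the other 6, and the summed striatum markers, 352 and 356 CPM, lay within the 345 to 458 CPM of the others. These marker genes were named after their values were seen. Of the 14142 genes with a mean of 1 CPM or more in the cerebellum libraries, 4.26% were higher in both libraries than in any of the other 6. The summed interneuron markers were 34.6 and 42.8 CPM in these libraries and from 14.4 to 20.3 CPM in the others. The summed cortical excitatory neuron markers were 428 and 443 CPM against 387 to 417 CPM. Their summed granule cell markers were 4190 and 4660 CPM, against 4210 to 4620 CPM in the others. The part of other brain tissue in these *Cbln2* counts was not tested.

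**Figure D1:**
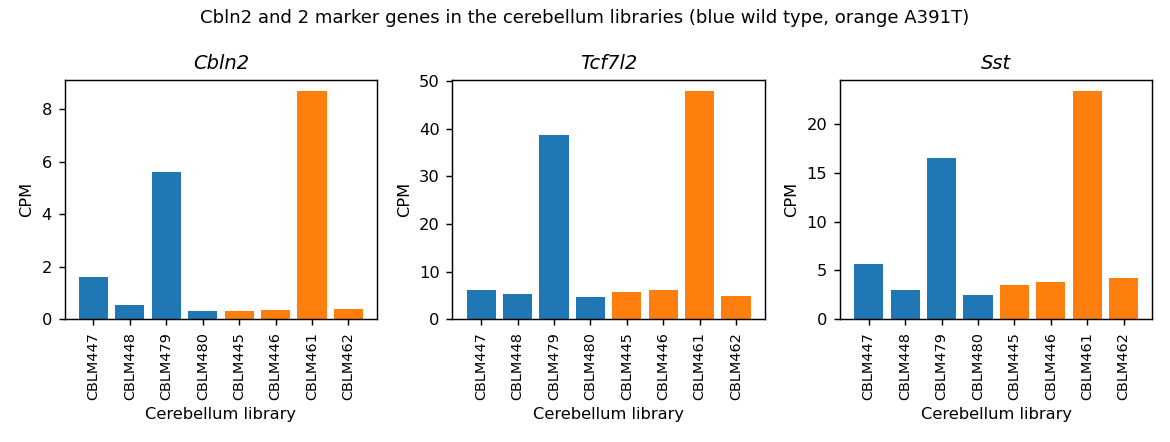
Bars give the CPM of *Cbln2*, *Tcf7l2* and *Sst* in each of the 8 cerebellum libraries, blue for wild type and orange for A391T. CBLM461 and CBLM479 are the highest bars in all 3 panels, and the other 6 libraries lie at or below 6.26 CPM in each.

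*Cbln4*, at chr2:171861733-171868966 on the minus strand, was likewise higher in cortex. Wild-type cortex had 13.7 TPM (CTX447), 19.6 TPM (CTX448), 25.7 TPM (CTX479) and 19.7 TPM (CTX480). Wild-type cerebellum had 4.86 TPM (CBLM447), 1.68 TPM (CBLM448), 2.87 TPM (CBLM479) and 1.53 TPM (CBLM480), from 28 to 92 counts. The lowest cortex library was 2.82 times the highest cerebellum library, and the means were 19.7 ± 4.88 TPM and 2.73 ± 1.54 TPM (SD, n = 4 each). This was a log2 fold change of -2.99 (SE 0.31, adjusted p = 5.9e-06), and -2.37 (adjusted p = 0.00034) under the names of the RPKM table.

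In A391T mice *Cbln4* was again higher in cortex. A391T cortex had 12.0 TPM (CTX445), 11.8 TPM (CTX446), 7.92 TPM (CTX461) and 10.7 TPM (CTX462), and A391T cerebellum had 2.15 TPM (CBLM445), 0.981 TPM (CBLM446), 4.47 TPM (CBLM461) and 4.81 TPM (CBLM462). The log2 fold change was -1.90 (SE 0.37, adjusted p = 0.0012), and the regions did not overlap. The difference between the genotypes in this regional change was 1.10 on the log2 scale (SE 0.52) and did not pass the test of the interaction (unadjusted p = 0.048, adjusted p = 0.77, edgeR's quasi-likelihood test over all 16 libraries). Under the names of the RPKM table the regional log2 fold change was -2.67 in A391T mice (adjusted p = 0.00011), larger in size than the -2.37 of wild-type mice, and the interaction turned to -0.29 (adjusted p = 0.86).

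*Grid1* spans chr14:35633011-36396565 on the plus strand, with 18 distinct exons. Wild-type cortex had 48.8 TPM (CTX447), 50.9 TPM (CTX448), 55.8 TPM (CTX479) and 40.6 TPM (CTX480). Wild-type cerebellum had 23.3 TPM (CBLM447), 21.4 TPM (CBLM448), 25.1 TPM (CBLM479) and 22.4 TPM (CBLM480). The receptor gene was thus well measured in both regions and higher in every cortex library, at 49.0 ± 6.31 TPM against 23.1 ± 1.54 TPM (SD, n = 4 each). The difference of -1.24 in log2 fold change (SE 0.087, adjusted p = 2.3e-07), or a fold of 2.36, was the smallest in size of the 6 entries.

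A391T cortex had from 45.3 to 48.6 TPM of *Grid1*, and A391T cerebellum had 13.6 TPM (CBLM445), 19.7 TPM (CBLM446), 22.3 TPM (CBLM461) and 21.6 TPM (CBLM462). The log2 fold change in A391T mice was -1.40 (SE 0.12, adjusted p = 3e-06). In both genotypes, then, 3 of the 6 entries were called higher in cerebellum (*Cbln3* and both entries of *Cbln1*) and 3 higher in cortex (*Grid1*, *Cbln2* and *Cbln4*), against the shares of all genes given above.

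**Figure D2:**
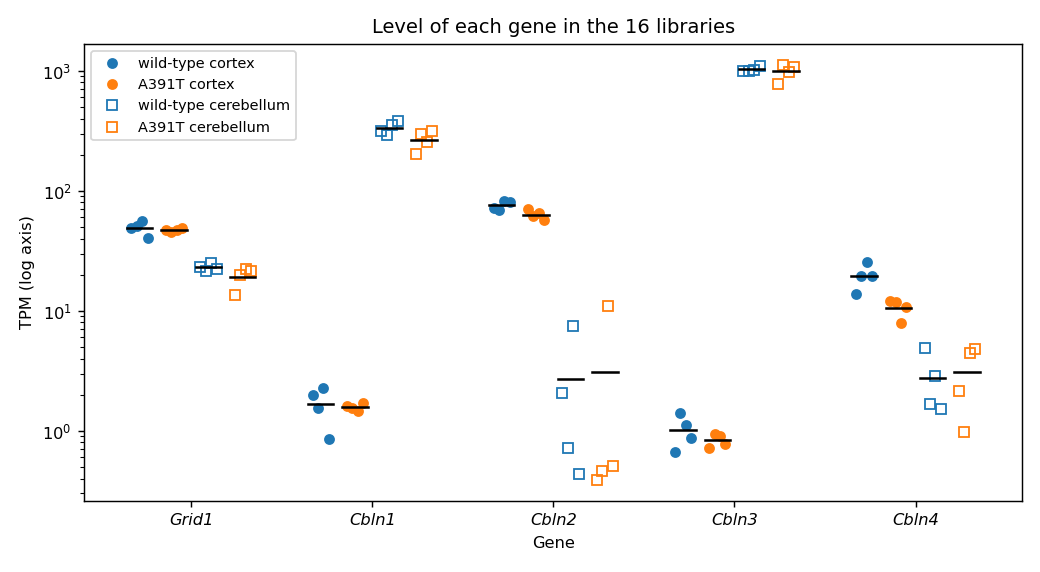
Each point is the TPM of a gene in 1 library on a log axis, for wild-type (blue) and A391T (orange) cortex (filled circles) and cerebellum (open squares), with a black line at the mean of the 4 libraries of a group. *Cbln1* and *Cbln3* lie near 1 TPM in cortex and above 200 TPM in cerebellum, *Cbln2* and *Cbln4* are higher in cortex, and *Grid1* is the gene with the smallest distance between the regions.

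The order of the levels was compared within libraries, over the 8 libraries of a region and both genotypes. In cortex the order was *Cbln2* (69.6 ± 8.81 TPM), *Grid1* (48.0 ± 4.36), *Cbln4* (15.1 ± 5.93), *Cbln1* (1.62 ± 0.413) and *Cbln3* (0.931 ± 0.244 TPM, SD, n = 8 each). *Cbln2* was above *Grid1* in 8 of 8 libraries, 1.44-fold in geometric mean, *Grid1* 3.38-fold above *Cbln4* in 8 of 8, and *Cbln4* 9.03-fold above *Cbln1* in 8 of 8 (two-sided exact sign-flip test, adjusted p = 0.01 for each, with 0.0078 the smallest unadjusted p that 8 libraries allow). *Cbln1* was above *Cbln3* in 7 of 8 libraries, 1.73-fold (exact sign-flip test, adjusted p = 0.018). Without division by gene length *Cbln2* was below *Grid1*, with a mean log2 ratio of -0.54, and *Cbln1* and *Cbln3* differed by 0.013. With the counts of *Cbln1* divided by only the exon bases that no other entry shares, *Cbln4* was 2.06-fold above *Cbln1* and *Cbln1* 6.26-fold above *Cbln3*, each in 8 of 8 cortex libraries (exact sign-flip test, adjusted p = 0.01).

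In cerebellum the order was *Cbln3* (1007 ± 108 TPM), *Cbln1* (301 ± 55.8), *Grid1* (21.2 ± 3.44), *Cbln4* (2.92 ± 1.58) and *Cbln2* (2.89 ± 4.09 TPM, SD, n = 8 each). *Cbln1* was 14.2-fold above *Grid1* and *Grid1* 8.29-fold above *Cbln4*, each in 8 of 8 libraries (exact sign-flip test, adjusted p = 0.01). *Cbln4* and *Cbln2* did not differ beyond their spread, with *Cbln4* above in 6 of 8 libraries (exact sign-flip test, adjusted p = 0.14). The 2 libraries with *Cbln2* above were CBLM461 and CBLM479, and in the other 6 *Cbln4* was 3.59-fold above *Cbln2* in geometric mean.

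The order of *Cbln3* and *Cbln1* in cerebellum rested on the length used. *Cbln3* was 3.38-fold above *Cbln1* in 8 of 8 libraries with the lengths of the deposited table (exact sign-flip test, adjusted p = 0.01), which gives *Cbln1* 3330 bases where the exons of its first entry cover 2343, and *Cbln3* 5715 where its exons cover 4723. With the bases that the exons cover, wild-type cerebellum had 465 ± 55.4 TPM of *Cbln1* and 1210 ± 52.7 TPM of *Cbln3* (SD, n = 4 each). With the counts of *Cbln1* divided by only its 762 exon bases that no other entry shares, the values were 1429 ± 170 and 1210 ± 52.7 TPM, and the mean log2 ratio of *Cbln3* to *Cbln1* turned to -0.096 (exact sign-flip test, adjusted p = 0.18). *Cbln1* was then 62.2-fold above *Grid1* in cerebellum. This length applies only if reads on shared exons went uncounted, which is not known, and it overstates *Cbln1* otherwise. Library totals stayed those of the covered bases, so these values do not add up to the fixed total of TPM.

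The regions thus differed in which cerebellins they held. The summed level of *Cbln1* to *Cbln4* was 98.2 ± 10.2 TPM in wild-type cortex and 1366 ± 81.0 TPM in wild-type cerebellum (SD, n = 4 each), with the lengths of the deposited table and the first entry of *Cbln1*. With the counts of *Cbln1* divided by only its unshared exon bases the sums were 101 ± 10.4 and 2644 ± 218 TPM. *Cbln2* made up 77.4% ± 3.54 of the sum by table lengths in wild-type cortex and *Cbln4* 19.8% ± 3.32, with 1.70% ± 0.619 for *Cbln1* and 1.04% ± 0.357 for *Cbln3* (SD, n = 4). In wild-type cerebellum *Cbln3* made up 75.1% ± 1.62 and *Cbln1* 24.5% ± 1.54, with 0.203% ± 0.120 for *Cbln4* and 0.196% ± 0.238 for *Cbln2*. For each of the 4 genes the ranges of the regions were apart (two-sided exact permutation test, p = 0.029, the smallest that 4 against 4 libraries allow, and 0.029 after adjustment over the 4 genes). The shares of a library sum to 100% and are not independent. The test took the regions of a mouse as independent. An exact test paired by mouse, which 4 mice could not pass, was not run.

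In A391T cortex *Cbln2* made up 82.9% ± 2.44 and *Cbln4* 13.9% ± 2.32 of the sum, and in A391T cerebellum *Cbln3* made up 78.4% ± 0.910 and *Cbln1* 21.1% ± 0.983 (SD, n = 4 each). The share of *Cbln1* in cerebellum ran from 20.3% to 22.5% in A391T and from 22.6% to 26.0% in wild-type mice, and that of *Cbln3* from 77.1% to 79.1% and from 73.8% to 77.2%. Under the names of the RPKM table the share of *Cbln1* ran from 20.6% to 23.9% in A391T and from 20.3% to 26.0% in wild-type cerebellum, so that the genotypes overlapped. The difference between the genotypes in these shares was not tested. With the counts of *Cbln1* divided by only its unshared exon bases, *Cbln1* made up 53.9% ± 2.08 and *Cbln3* 45.9% ± 2.11 of the sum in wild-type cerebellum. *Cbln1* then made up 6.99% ± 2.45 in wild-type cortex, so that these shares are known only within the range of the lengths used.

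**Figure D3:**
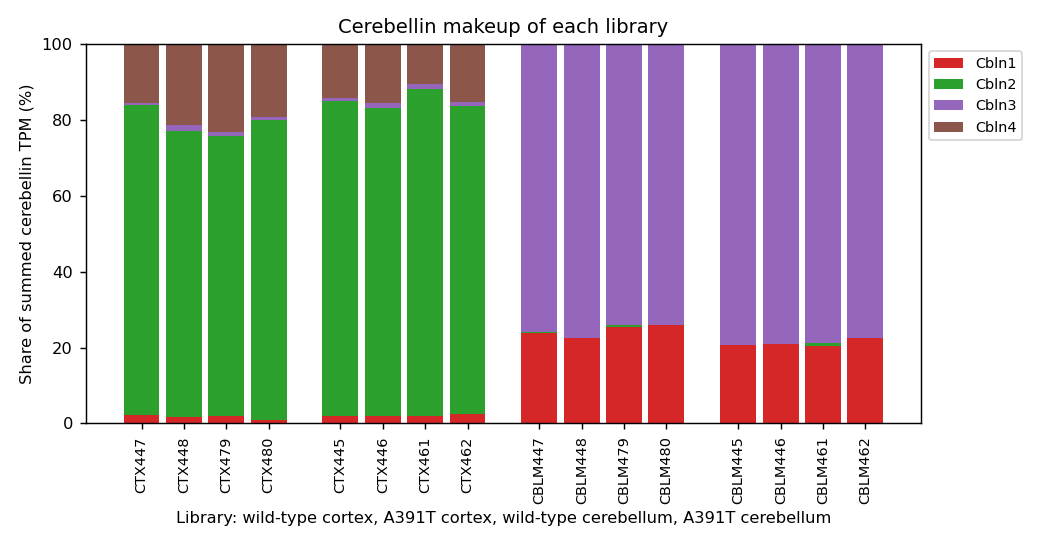
Each bar is 1 library and stacks the shares of *Cbln1*, *Cbln2*, *Cbln3* and *Cbln4* in their summed TPM, in percent. The 8 cortex bars are mostly *Cbln2* with *Cbln4* at the top, and the 8 cerebellum bars are *Cbln3* above *Cbln1*, with the lengths of the deposited table.

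Genes of the same synaptic pathway were counted from lists of 24 gene names, of which 21 genes passed the filter on low counts. The lists hold binding partners of the cerebellins and of delta receptors, and also C1q-like relatives, other ligands of neurexins and genes of metabotropic glutamate signalling that are not partners of the cerebellins. In wild-type mice 2 were called higher in cerebellum (9.52%, against 10.5% of all genes tested) and 6 higher in cortex (28.6%, against 14.2%), with a median log2 fold change of -0.30 against 0.018 over all genes tested. In A391T mice the counts were 1 (4.76%, against 9.80%) and 8 (38.1%, against 14.9%), with a median of -0.43 against 0.026.

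The 2 listed neurexin genes, which encode presynaptic partners, differed by under 2-fold between the regions. *Nrxn2* had a log2 fold change of 0.28 (SE 0.10) and *Nrxn3* of 0.18 (SE 0.068) in wild-type mice. *Nrxn3* was at 84.1 ± 6.63 TPM in wild-type cortex and 106 ± 8.33 TPM in wild-type cerebellum (SD, n = 4 each).

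Of the netrin receptor genes, *Dcc* was called higher in cortex, with a log2 fold change of -2.11 (SE 0.41, adjusted p = 0.00076), the same direction as *Cbln4*, and *Neo1* was not called (-0.092, SE 0.080). Among the 4 C1q-like relatives and receptor genes tested, 1 was called. This was *C1ql3*, a secreted relative of the cerebellins, at 198 ± 19.0 TPM in wild-type cortex and 18.8 ± 1.82 TPM in wild-type cerebellum (log2 fold change -3.55, SE 0.11, adjusted p = 2.2e-10). *Bai3*, the receptor of the C1q-like proteins, was not called (0.11, SE 0.076).

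Of the 5 genes for intracellular partners of delta receptors, 2 were called higher in cerebellum in wild-type mice, *Grid2ip*, which encodes the Purkinje cell scaffold delphilin, at a log2 fold change of 4.63 (SE 0.23), and *Ptpn4*, a tyrosine phosphatase gene, at 1.03 (SE 0.25). With CTX447, CTX480, CBLM479 or CBLM480 left out in turn, the number of pathway genes called higher in cerebellum in wild-type mice was 1 in place of 2. *Grm5*, which encodes a metabotropic glutamate receptor, was called higher in cortex (-4.06, SE 0.28). Of the 7 other neurexin ligands, 3 were called, each higher in cortex. These were *Nlgn1* (-1.34), *Lrrtm1* (-2.87) and *Lrrtm4* (-2.75), which encode postsynaptic adhesion proteins. In A391T mice *Ptpn4* (0.54) was not called, and *Shank1* (-1.18), a postsynaptic scaffold gene, and *Lrrtm2* (-1.12) were called higher in cortex beside those named, while the interaction was called for none of the 3.

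**Figure D4:**
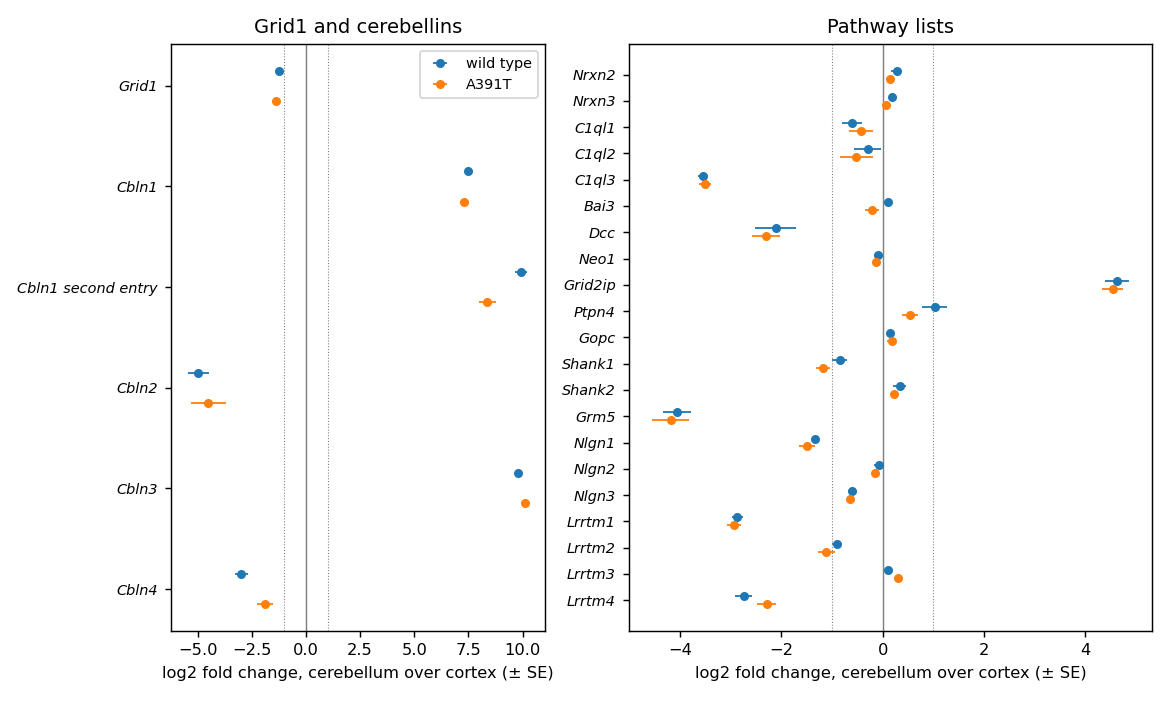
Points give the log2 fold change from cortex to cerebellum with its SE, for wild-type (blue) and A391T (orange) mice, on the left for *Grid1* and the cerebellins and on the right for the listed pathway genes, with dotted lines at a 2-fold change. The cerebellins lie far from 0 on either side and *Nrxn2* and *Nrxn3* within the dotted lines, and the point of the second *Cbln1* entry is a fitted value against at most 2 counts per cortex library. Its bar, derived like the others from the F value of the test, does not cover the counting error of so few counts.

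The comparison of A391T with wild-type mice asked whether the mutation moved these genes within a region. In cortex none of the 5 entries tested was called by edgeR's quasi-likelihood test, where 2 of 15815 genes were (0.0126%), and 748 genes had an unadjusted p under 0.05. The second *Cbln1* entry was not tested in cortex because it did not pass the filter on low counts. *Cbln4* had the largest log2 fold change of the 5 in size, with all 4 A391T libraries (7.92 to 12.0 TPM) below all 4 wild-type libraries (13.7 to 25.7 TPM).

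The log2 fold change of *Cbln4* in cortex was -0.90 (SE 0.18, unadjusted p = 0.00028, adjusted p = 0.55, edgeR's quasi-likelihood test). Other tests gave the same size and called it, with an adjusted p = 0.0014 from DESeq2, 0.0017 from edgeR's exact test and 0.023 from the quasi-likelihood test without a filter on low counts. Over all alternatives the adjusted p ran from 0.0014 to 1. Under the names of the RPKM table the groups overlapped, at 14.3 ± 3.63 TPM in A391T and 16.0 ± 8.17 TPM in wild-type cortex (SD, n = 4 each), with a log2 fold change of -0.16 (adjusted p = 0.93). With only the 2 wild-type and 2 A391T mice whose names match it was -0.95 (adjusted p = 0.74).

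Values of other genes stood beside this difference. CTX461, the lowest library in *Cbln4*, had a summed level of striatum markers of 298 CPM, against 746 to 1086 CPM in the other 7 cortex libraries. The summed interneuron markers, *Sst* and *Npy* among them, were from 359 to 373 CPM in A391T cortex and from 356 to 547 CPM in wild-type cortex, with the highest value in CTX480. The part of tissue makeup in the *Cbln4* difference was not tested.

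**Figure D5:**
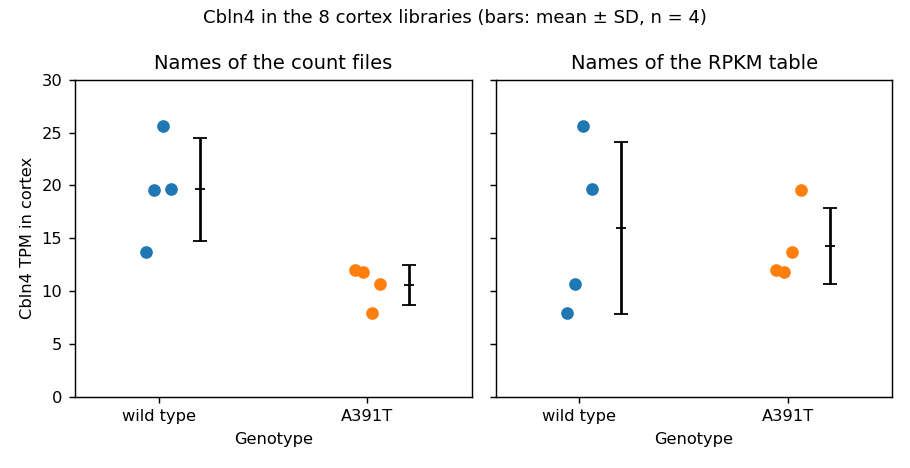
Points are the TPM of *Cbln4* in the 8 cortex libraries by genotype, on the left with the names of the count files and on the right with those of the RPKM table, and the bars beside them are the mean and SD of 4 libraries. The genotypes do not overlap on the left and overlap on the right.

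*Cbln2* in cortex had a log2 fold change of -0.28 (SE 0.084, unadjusted p = 0.0058, adjusted p = 0.97) between A391T and wild-type mice, and of -0.063 (adjusted p = 0.92) under the names of the RPKM table. *Grid1*, *Cbln1* and *Cbln3* had values of -0.078 (SE 0.078), -0.083 (SE 0.24) and -0.31 (SE 0.22), each with an adjusted p = 1. *Cbln1* had from 17 to 46 and *Cbln3* from 26 to 65 counts per cortex library.

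In cerebellum none of the 6 entries and 0 of 15668 genes (0.00%) were called by edgeR's quasi-likelihood test, with 1340 genes at an unadjusted p under 0.05, while DESeq2 called 30 genes and edgeR's exact test 17. None of these tests called one of the 6 entries. The first entry of *Cbln1* had a log2 fold change of -0.28 (SE 0.12, unadjusted p = 0.038, adjusted p = 0.53), *Grid1* of -0.21 (SE 0.12), *Cbln3* of -0.0041 (SE 0.087) and *Cbln4* of 0.22 (SE 0.50). The value of *Grid1* was -0.11 without CBLM445 and -0.41 with only the mice whose names match. For *Cbln2* the value of 0.23 had an SE of 1.14, with 1 library of each genotype far above its group. Without CBLM461 it was -2.49, and without CBLM479 it was 1.51. The second entry of *Cbln1* had a value of -0.0025 (SE 0.18).

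The interaction of genotype and region was called for 0 of 16589 genes (0.00%) and for none of the 6 entries, with 805 genes at an unadjusted p under 0.05 in edgeR's quasi-likelihood test and 1 gene called by DESeq2. Beside *Cbln4*, the values of the entries ran from -1.55 (SE 1.28) for the second entry of *Cbln1* to 0.48 (SE 1.01) for *Cbln2*. None of the 21 pathway genes was called in either region or in the interaction, by either edgeR's quasi-likelihood test or DESeq2.

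Genes whose level followed each member most closely were taken over the 8 libraries of the region with the higher level, among 14220 genes in cortex and 14134 in cerebellum, by Pearson's r of log2(CPM + 1). For *Cbln3* in cerebellum these were *Hs3st1* (r = 0.988), *Zfp658* (0.982) and *Phf21b* (0.978), and for *Cbln1* in cerebellum they were *Man2a2* (0.991), *Cabin1* (0.985) and *Rai1* (0.984). For *Cbln2* in cortex they were *Fam154b* (0.977), *1110008L16Rik* (0.960) and *1700106N22Rik* (0.960), for *Cbln4* in cortex *Crispld2* (0.964), *B230208B08Rik* (0.949) and *Nckipsd* (0.949), and for *Grid1* in cortex *Tnfrsf21* (0.967), *Pdxk* (0.965) and *Gpr135* (0.962). These are the highest of many values over 8 libraries of both genotypes that share depth and dissection, and none of the 15 genes is a member or a listed pathway gene.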

How the data were processed

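RNA was purified from snap-frozen tissue, and polyA-selected directional libraries were sequenced. The authors aligned reads to mm9 (NCBIM37) with STAR and counted them on Ensembl genes with HTSeq 0.11.2. The deposited counts are whole numbers per gene and library, without normalization and without use of strand. A table of the whole series holds RPKM values that the authors deposited with a length for each gene. Each RPKM column was matched to the 1 count library it is proportional to, and 8 of 16 carry the name of another library. Reads that fell on no single gene were left out.

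Here TPM was computed from counts and the table's lengths, and CPM from counts. Counts were tested with edgeR 4.0.16 (R 4.3.3, limma 3.58.1) with TMM normalization, the filter filterByExpr and the quasi-likelihood test, and p-values were adjusted by Benjamini-Hochberg across all genes that entered a comparison. Regions were compared within each genotype (called at an adjusted p under 0.05 and a 2-fold change), genotypes within each region, and their interaction over all 16 libraries (both called at an adjusted p under 0.05). The SE of a log2 fold change was derived as its size divided by the square root of the F value of the test. The test was checked on simulated counts. Nothing states that libraries of a group differ by plan in anything but the mouse. Each mouse gave a library per region, so p-values measure the spread of mouse, dissection and library together. Single values used exact tests in Python 3.11.15 (scipy 1.17.1). Counts per library are printed for low genes.

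The 2 regions of a mouse are paired by the mouse numbers of the titles and by the methods. The deviations of the 2 regions from their group means correlated across genes by -0.10 to 0.12 per mouse. The members, the pathway lists and the marker lists were chosen with earlier results of these data known. Some genes of the pathway lists are not reported here. Named genes are all members, pathway genes by list, and for each member the 3 genes with the highest r; marker genes are also named beside the libraries that stood apart, chosen after their values were seen. Alternatives were DESeq2 1.42.0, edgeR's exact test, RLE factors, library totals, 2 other filters, the names of the RPKM table, only the mice whose names match, mouse as a replicate block, 1 model for all libraries, a test against a 2-fold change, other gene lengths and each library left out. Those on gene lengths, on 2 libraries together and on the table's names with the block were chosen after seeing the data.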

Additional observations from a re-analysis of the deposited data

Results flagged for a closer look

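Among the 24 sets of 4 libraries (6 entries in 4 groups), 2 held a library whose TPM lay apart from the other 3 by more than the 95% critical value of Dixon's test for 4 samples; chance gives about 1 in 20. *Cbln2* in A391T cerebellum was at 11.1 TPM in CBLM461 against 0.388 to 0.505 TPM in the other 3, a gap of 0.989 of the range. The second entry of *Cbln1* in wild-type cortex was at 0.0918 TPM in CTX480, which is 1 count where the other 3 libraries had 0. With such counts the gap is the whole range by construction, so this set cannot be weighed against the chance share.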

How the results depend on the processing

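In the comparisons of the regions, all 6 entries kept their direction and their call in both genotypes under every alternative that gave an adjusted p; DESeq2 gave none for *Cbln2*. With mouse as a replicate block, 3 entries were again called higher in cerebellum and 3 higher in cortex in both genotypes, and the block changed no call. The 2 pathway genes called higher in wild-type cerebellum became 1 with a test against a 2-fold change and 1 to 2 with 1 library left out. The genotype calls moved with the tool. In cortex the 2 genes called became 0 with RLE factors, library totals, a filter of 1 CPM or the names of the RPKM table, 1 with only the mice whose names match, 7 without a filter, 14 with DESeq2 and 13 with edgeR's exact test. Leaving out 1 library gave 0 to 4. *Cbln4* was the 1 entry called without a filter, with DESeq2 and with the exact test. In cerebellum the 0 calls became 1 without a filter, 30 with DESeq2, 17 with the exact test and 0 to 1 with 1 library left out. The interaction became 1 with DESeq2. edgeR's exact test was not run for the interaction, since it compares 2 groups only.

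Differences between genotypes that were not called changed sign in places; the cause was not tested. Under the names of the RPKM table these were, in cortex, *Cbln1* 0.063 and *Cbln3* 0.040, in cerebellum the second *Cbln1* entry 0.30, *Cbln2* -2.39 and *Cbln4* -0.45, and in the interaction the second *Cbln1* entry 0.86, *Cbln2* -2.35, *Cbln3* -0.10 and *Cbln4* -0.29. With only the mice whose names match, the second *Cbln1* entry was 0.28 and *Cbln4* -0.34 in cerebellum, and *Cbln2* -2.78 in the interaction. Without CBLM461 and CBLM479 the second *Cbln1* entry was 0.076. With 1 library left out, *Cbln1* in cortex ran from -0.27 to 0.078. In cerebellum the second *Cbln1* entry ran from -0.24 to 0.10, *Cbln2* from -2.49 to 1.51, *Cbln3* from -0.060 to 0.063 and *Cbln4* from -0.057 to 0.66. In the interaction *Cbln2* ran from -2.22 to 1.78.

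In the order of levels, CPM turned *Cbln2* over *Grid1* in cortex to a mean log2 ratio of -0.54 and took *Cbln1* over *Cbln3* to 0.013. Division of the *Cbln1* counts by only its unshared exon bases turned *Cbln3* over *Cbln1* in cerebellum to -0.096. With 4 wild-type libraries, where the sign-flip test cannot pass, the ratios kept their direction. In cortex they were 0.64, 1.34, 3.62 and 0.67 from *Cbln2* down, and in cerebellum 1.62, 3.86 and 3.23 from *Cbln3* down. The makeup kept its direction and call under all alternatives, none of which paired the regions of a mouse. Counts were low for *Cbln1* and *Cbln3* in cortex and for *Cbln2* and *Cbln4* in cerebellum, with 8 to 202 per library.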
